A study of Homo sapiens with 2 samples.

Results

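The genes described here encode 9 families of transcription factors known from embryonic patterning and organ formation: HOX, FOX, SOX, TBX, GATA, PAX, LHX and TEAD genes and the homeobox genes SIX2 to SIX6. They were taken by gene symbol from the annotation of the array's probe sets, a rule that does not use the signals. Which genes to describe was nevertheless decided with earlier results of these data known. Where a gene had several probe sets, the one with the highest mean of both arrays stood for it. The symbols took in 136 of 14884 named genes. Of these, 4 are not members of the families but transcripts that carry a FOX gene's name (FOXD2-AS1, FOXL2NB, FOXN3-AS1 and FOXN3-AS2). The signals come from A549, an established human lung adenocarcinoma line of epithelial character, kept for 4 h in stretch culture or for 4 h in static culture. In the title of the stretched sample 2 digits of the cell line are transposed; the source name gives A549. With 1 array for each condition there are no replicates, so nothing below could be tested. The device, amplitude and rate of stretch and the number of cultures behind each RNA are not given in the sources used here. These are bulk samples, in which fewer cells of a kind and less RNA per cell cannot be told apart. The series' title names invasion and tumour necrosis factor alpha.

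HOX proteins are homeodomain factors that set position along the body axis, and their genes lie in clusters in which the low-numbered genes act anteriorly and the high-numbered genes posteriorly. Forkhead (FOX) proteins include the FOXA factors that open chromatin in endodermal organs such as the lung, the FOXO factors that insulin signalling holds out of the nucleus, and FOXM1 of the dividing cell. SOX and GATA factors act in lineage choice, T-box (TBX) factors in heart, limb and lung mesenchyme, PAX, LHX and sine oculis factors in sense organs, kidney, muscle and nervous system. TEAD proteins bind DNA for the co-activators YAP and TAZ, which enter the nucleus when cells spread or are stretched.

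Signals are log2 RMA values, and every difference is stretch minus static on the log2 scale. A background bound of 4.15 was taken as the 95th percentile of the signals of 15 measured genes of unrelated tissues, whose own differences ran from -0.72 to 0.63. Of these 15 genes, 3 differed by at least 1.5-fold and 0 by at least 2-fold. Genes were also counted past a level filter of 2.52, the median of all values, reached on at least 1 array. The labelled cell type was visible in KRT18 (11.00 under stretch, 10.29 static), a simple epithelial keratin, and 5 of 10 measured epithelial markers lay above the bound on both arrays. None of 3 fibroblast and 4 endothelial markers did. Of 3 immune markers, CD68, a lysosomal protein (8.58 under stretch, 7.51 static), and CD14 (5.53 under stretch, 5.13 static) did, with summed log2 signals over the 3 of 16.0 under stretch and 15.0 static, and their part in the results below was not tested.

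Most of the developmental factors gave signals no brighter than those of genes foreign to the tissue. Of the 136 genes, 97 (71.3%) were no brighter than the bound on either array, against 54.4% of all named genes, and 27 (19.9%) lay above it on both, against 37.3% of all named genes. Another 6 were above the bound on the stretched array only and 6 on the static array only. The level filter was passed by 104 genes, 88 of them on both arrays and 16 on 1 array, and 32 did not pass. The 32 had differences between -0.42 and 0.29. RMA carries no detection call, so a signal within the background range does not show that a transcript was absent.

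At 1.5-fold, 11 of the 136 genes stood higher on the stretched array and 10 lower, all 21 past the level filter. Over all named genes with no filter, the same threshold was reached upwards by 20.7% and downwards by 8.02%, and past the filter the shares were 27.7% and 8.90%, against 10.6% and 9.62% of the 104 developmental genes. At 2-fold, 5 were higher and 3 lower, against 12.3% and 2.50% of all genes past the filter, or 9.07% and 1.93% with no filter. The median difference over the 136 genes was -0.05, against 0.06 over all named genes, and over the 104 it was -0.06, against 0.20 over all genes past the filter. The shares over all genes differed with brightness. Among the 65 genes that passed the filter but did not exceed the bound on either array, 3 were higher and 6 lower, beside 10% and 14% of all genes of that range. Among the 27 above the bound on both arrays, 4 were higher and 3 lower, beside 33.8% and 4.08%. The remaining 12 lay above it on 1 array, a split that the difference itself decides, so that their 4 higher and 1 lower genes, beside 60.6% and 13.1%, are only listed.

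How the 2 arrays are scaled to each other shifts the zero. Centring on array medians moved the median of all genes past the filter by 0.10, quantile normalization by -0.21, a loess curve on level by -0.16 and centring on reference gene medians by -0.04, while the median difference of 15 reference genes was 0.40. Differences between -0.10 and 0.40 therefore had the opposite sign under at least 1 of these scalings. Quantile normalization and loess shift genes by their level, so some differences outside this range changed sign too. SOX11, for example, stood at -0.12 as deposited and at 0.015 after loess. The 11 higher and 10 lower genes as deposited (52.4% of calls higher) became 12 and 5 after centring on medians (70.6%), 8 and 24 after quantile normalization (25.0%), 11 and 18 after loess (37.9%) and 11 and 17 after centring on reference gene medians (39.3%). With the reference genes' median difference subtracted they were 5 and 42 (10.6%). The 15 reference genes themselves ran from -0.57 to 1.72, with 6 at least 1.5-fold higher and 0 lower. All 15 lay above the bound on both arrays, as only 27 of the 136 developmental genes did. Whether their median difference holds for dim genes was not tested. Counts below are on the deposited scale unless another is named. For all named genes past the filter the share was 75.7% as deposited, 53.9% after quantile normalization, 60.3% after loess and 33.8% with that subtraction. Of the genes past 1.5-fold as deposited, 5 of the 11 higher and 5 of the 10 lower genes kept 1.5-fold under every one. SOX15, SOX17, HOXC9, HOXB3 and FOXF1 came short of it after centring on medians, and FOXF2, FOXL1, SOX18, FOXD1, TEAD1 and TBX18 with the reference genes' median difference subtracted.

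**Figure D1:**
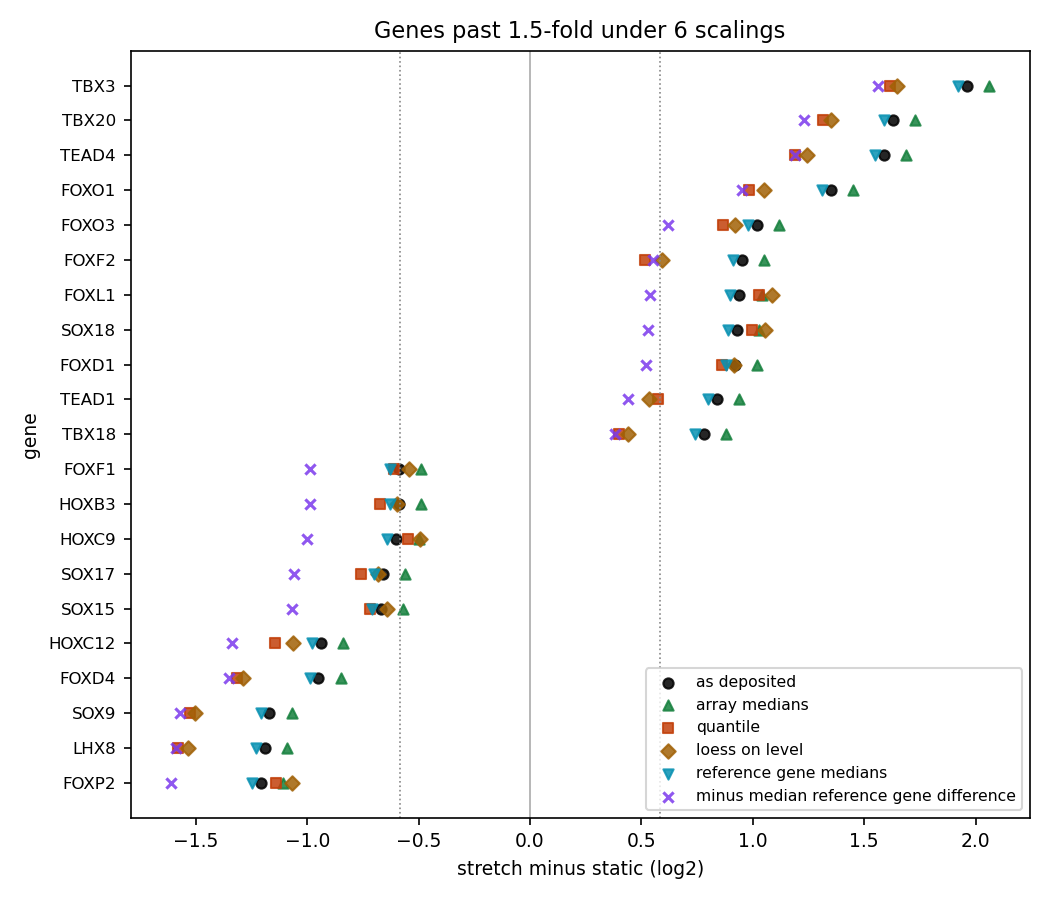
Stretch minus static log2 difference (x axis) of the 21 developmental genes past 1.5-fold (y axis), as deposited and under 5 other scalings of the arrays, with dotted lines at 1.5-fold. TBX3, TBX20, TEAD4, FOXO1 and FOXO3 stay beyond the right line and FOXP2, LHX8, SOX9, FOXD4 and HOXC12 beyond the left line under every scaling shown.

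Sequences just upstream of the genes past 1.5-fold are shown to give the regulatory context of the main ones, as RefSeq places them on GRCh38.p14: 250 bases before to 50 after the annotated start, 5′ to 3′ on the gene's strand. Windows were held for 89 of the 136 genes and for 9 of the 21 past 1.5-fold. TBX3, TEAD1, TEAD4 and SOX9 are named only. Capitals mark the TEAD core GGAATG or its reverse complement CATTCC, and the CCAAT box CCAAT or its reverse complement ATTGG, searched on both strands. The CCAAT box in reverse and the TEAD core can share letters, but their matches lie apart in the windows printed.

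TBX20 (chr7:35254051-35254350, minus strand): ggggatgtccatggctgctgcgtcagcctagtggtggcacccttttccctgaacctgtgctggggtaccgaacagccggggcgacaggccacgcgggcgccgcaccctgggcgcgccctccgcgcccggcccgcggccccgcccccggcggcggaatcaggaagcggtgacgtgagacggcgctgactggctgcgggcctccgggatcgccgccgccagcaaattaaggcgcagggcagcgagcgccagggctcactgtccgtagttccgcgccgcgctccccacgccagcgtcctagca

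TBX18 (chr6:84764549-84764848, minus strand): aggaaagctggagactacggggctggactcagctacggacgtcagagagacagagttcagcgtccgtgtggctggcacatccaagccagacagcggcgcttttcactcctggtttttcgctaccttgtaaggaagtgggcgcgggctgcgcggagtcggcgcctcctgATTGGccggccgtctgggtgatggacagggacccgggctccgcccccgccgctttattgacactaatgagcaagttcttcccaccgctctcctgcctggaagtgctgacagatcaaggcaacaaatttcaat

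FOXO1 (chr13:40666592-40666891, minus strand): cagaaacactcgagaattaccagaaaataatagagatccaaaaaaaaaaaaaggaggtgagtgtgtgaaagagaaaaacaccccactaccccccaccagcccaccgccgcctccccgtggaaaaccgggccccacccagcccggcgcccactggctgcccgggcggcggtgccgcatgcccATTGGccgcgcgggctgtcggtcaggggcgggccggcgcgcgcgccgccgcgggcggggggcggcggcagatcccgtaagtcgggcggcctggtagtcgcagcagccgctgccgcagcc

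FOXO3, the first of its 4 windows (chr6:108559575-108559874, plus strand): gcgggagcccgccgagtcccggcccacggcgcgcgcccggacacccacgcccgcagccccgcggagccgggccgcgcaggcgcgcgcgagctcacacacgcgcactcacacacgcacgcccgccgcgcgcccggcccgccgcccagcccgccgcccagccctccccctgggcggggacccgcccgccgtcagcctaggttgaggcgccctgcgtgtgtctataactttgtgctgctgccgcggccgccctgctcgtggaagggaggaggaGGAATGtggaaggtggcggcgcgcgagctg

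FOXF2 (chr6:1389326-1389625, plus strand): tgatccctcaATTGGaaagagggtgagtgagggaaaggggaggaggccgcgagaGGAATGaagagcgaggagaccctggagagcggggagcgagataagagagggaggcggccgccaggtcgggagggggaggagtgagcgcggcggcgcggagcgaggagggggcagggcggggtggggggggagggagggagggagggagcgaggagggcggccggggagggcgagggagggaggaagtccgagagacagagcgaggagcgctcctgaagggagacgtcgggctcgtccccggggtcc

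LHX8, the first of its 2 windows (chr1:75128184-75128483, plus strand): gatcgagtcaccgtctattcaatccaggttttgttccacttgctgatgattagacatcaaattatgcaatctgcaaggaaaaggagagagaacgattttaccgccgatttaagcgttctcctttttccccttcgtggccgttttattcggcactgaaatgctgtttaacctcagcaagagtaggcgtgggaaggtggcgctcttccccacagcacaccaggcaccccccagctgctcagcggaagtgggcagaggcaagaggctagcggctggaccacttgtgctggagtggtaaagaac

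The TEAD core was found in FOXF2, starting at position -196 from the gene's start, and in FOXO3, at position 20, and the CCAAT box in FOXF2, FOXO1 and TBX18 and, not printed, in the second windows of LHX8 and FOXP2. Neither motif was found in the window of TBX20, the first window of LHX8 or, not printed, the windows of FOXD1 and FOXD4. That says only that those letters are not in them. Over all 35116 windows, 14.0% held the TEAD core and 34.6% the CCAAT box. By gene, 16 of the 89 developmental genes with a window (18.0%) had a TEAD core in any of their windows, against 16.7% of 27305 genes, and 43 (48.3%) had a CCAAT box, against 39.7%. The printed FOXO3 and TBX20 windows held 47 and 38 CG dinucleotides, beside medians of 14 over all windows and 20.5 over those of developmental genes. The other FOXO3 windows held 42, 40 and 2. The first LHX8 window held 13 and the second 4. The 2 windows of FOXP2 held 1 and 3. Those of FOXO1, FOXF2 and TBX18 held 33, 26 and 21. FOXD1, higher under stretch, and FOXD4, lower, held 16 each, so the counts did not separate higher from lower genes.

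TEAD genes were all 4 measured, and 2 stood at least 1.5-fold higher under stretch, beside 27.7% of all genes past the filter. TEAD4 had a signal of 6.16 in stretch culture and 4.57 in static culture, a difference of 1.59 (3.01-fold). TEAD1, in many tissues the main TEAD gene, read 8.14 under stretch and 7.30 static, a difference of 0.84 that fell short of 1.5-fold after quantile normalization (0.575), after loess (0.53) and with the reference genes' median difference subtracted (0.44). TEAD4 and TEAD1 were thus the higher pair, both above the background bound on both arrays. TEAD2 read 6.39 under stretch and 6.23 static, a difference (0.16) that turned to -0.19 after loess. TEAD3 read 3.18 on both arrays, within the background range. The family median of 0.50 lay between 0.10 and 0.60 over the scalings.

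The partners of TEAD proteins did not all differ in one direction. YAP1, the co-activator itself, read 6.58 under stretch and 5.80 static, a difference of 0.78 with the brightest probe set and of 0.20 with all its probe sets averaged. WWTR1, which encodes TAZ, read 4.90 under stretch and 5.64 static (-0.74). VGLL3 (5.18 under stretch, 4.07 static) and VGLL4 (4.64 under stretch, 4.04 static), which compete for TEAD proteins, both passed 1.5-fold upwards and lay above the bound on the stretched array only. With the reference genes' median difference subtracted, VGLL4 stood at 0.20, and YAP1 went down to 0.36 over the scalings, both under 1.5-fold. Among 13 measured TEAD target genes (23 listed), 10 passed 1.5-fold upwards and 0 downwards, beside 27.7% and 8.90% of all genes past the filter. The list median was 1.38, against 0.20 over all genes past the filter, with ANKRD1, CCN2, FJX1 and AJUBA at the top. CCN2 and FJX1 lay above the bound on both arrays. ANKRD1 (8.13 under stretch, 2.39 static) and AJUBA (6.07 under stretch, 3.48 static) lay above it on the stretched array only. ANKRD1 passed the level filter on the stretched array alone, where it is high. That list was drawn up with these genes' earlier results known, and FOXF2 belongs both to it and to the developmental genes.

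TBX3, TBX20 and TBX18 were the T-box genes that stood higher under stretch. TBX3, a repressor in limb, breast and heart development that holds back senescence, had a signal of 5.86 under stretch and 3.90 static, a difference of 1.96 (3.89-fold). TBX20, a cardiac T-box factor, read 5.45 under stretch and 3.82 static (1.63, 3.10-fold). Both had static signals within the background range and stretched signals above it, so their static values cannot be told from background and the size of their differences is uncertain. TBX18, of ureter and heart mesenchyme, read 7.05 under stretch and 6.27 static, above the bound on both arrays. Its difference of 0.78 was under 1.5-fold after quantile normalization (0.40), after loess (0.44) and with the reference genes' median difference subtracted (0.38). The other 7 T-box genes past the filter had differences between -0.57 for TBX21, the T-bet factor of T helper cells, and 0.34 for TBX19 of the pituitary. TBX21, within the background range on both arrays, passed 1.5-fold downwards after quantile normalization (-0.675), loess (-0.60) and centring on reference gene medians (-0.61). TBX2 read 3.44 under stretch and 3.25 static. TBX5, the neighbouring gene of TBX3 in RefSeq order, was below the filter with 1.72 under stretch and 1.74 static. Of the 10 T-box genes past the filter, 3 were higher and 0 lower at 1.5-fold, a share of higher genes near the 27.7% of all genes past the filter. Their median was 0.18, or -0.22 with the reference genes' median difference subtracted.

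**Figure D2:**
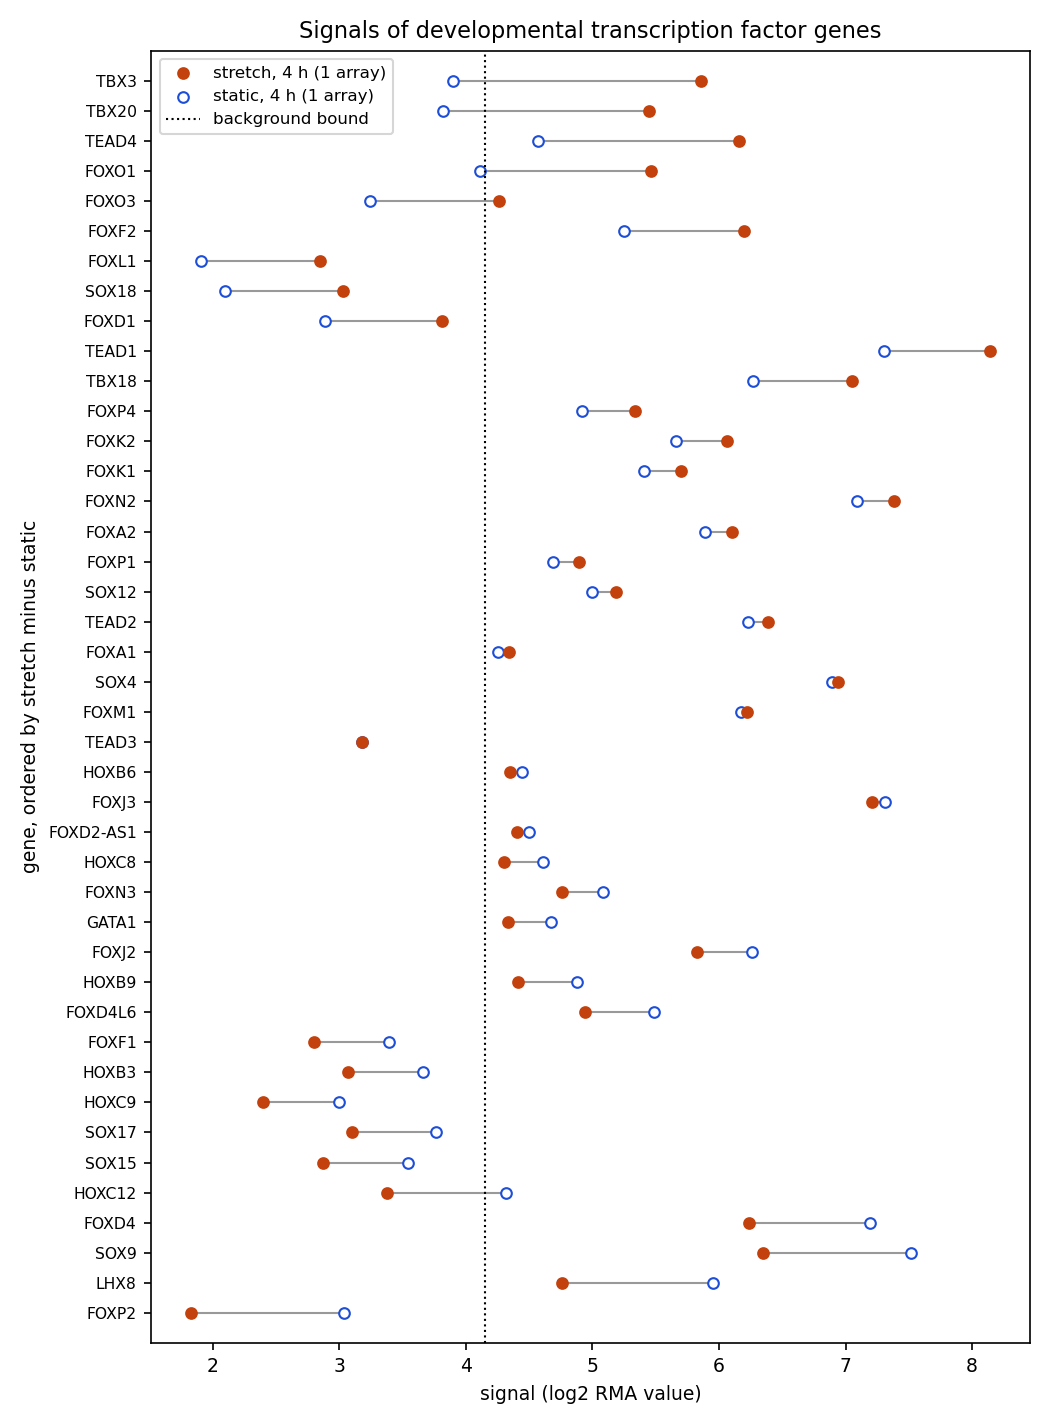
Log2 RMA signal (x axis) on the stretched array (filled) and on the static array (open) for the developmental genes (y axis) that differed by at least 1.5-fold, lay above the background bound (dotted, 4.15) on both arrays, or encode TEAD proteins. TBX3, TBX20 and FOXO1 cross the bound between the arrays, SOX9, FOXD4 and LHX8 lie above it on both, and the points of TEAD3 coincide.

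Forkhead genes held 5 of the 11 higher and 3 of the 10 lower genes, out of 43 measured and 37 past the filter. They are the largest of the 9 families, and of all genes past the filter 27.7% were higher and 8.90% lower. FOXO1, a target of insulin and AKT signalling, read 5.46 under stretch and 4.11 static, a difference of 1.35 (2.55-fold). FOXO3 read 4.26 under stretch and 3.24 static (1.02), and its second, dimmer probe set 3.27 under stretch and 3.07 static. Both FOXO genes had static signals within the background range and kept 1.5-fold under every scaling. FOXO3 has a near-identical pseudogene copy, so its signal is uncertain. FOXO4, the third FOXO gene measured, read 3.28 under stretch and 3.61 static, within the range on both arrays. FOXF2, a factor of gut and lung mesenchyme, read 6.20 under stretch and 5.25 static (0.95), above the bound on both arrays. Its difference was 0.52 after quantile normalization and 0.55 with the reference genes' median difference subtracted. FOXF1, the related mesenchymal factor, read 2.80 under stretch and 3.39 static (-0.59), within the background range. FOXD1 (3.81 under stretch, 2.89 static) and FOXL1 (2.85 under stretch, 1.91 static) were the remaining higher pair, both within the range on both arrays. The second probe set of FOXD1 read 2.60 under stretch and 2.61 static, and FOXL1 passed the level filter on the stretched array alone.

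FOXP2, a forkhead repressor of lung epithelium and brain, read 1.83 under stretch and 3.04 static (-1.21). It stayed under the bound on both arrays and passed the filter on the static array alone, where it is high, so the size of its difference cannot be read. The related repressors FOXP1 (4.89 under stretch, 4.69 static) and FOXP4 (5.34 under stretch, 4.92 static), both above the bound, did not reach 1.5-fold. FOXD4 read 6.24 under stretch and 7.19 static (-0.95). FOXD4L6 (4.94 under stretch, 5.49 static) differed by -0.55, and by 0.07 on its second, dimmer probe set. Its brighter probe set stood at -0.955 after quantile normalization and -0.89 after loess. FOXD4 and its copies FOXD4L1, FOXD4L5 and FOXD4L6 are near identical in sequence, so their signals may be shared and each is uncertain.

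The forkhead genes of lung identity and of cell division did not reach 1.5-fold. FOXA2, a pioneer factor of foregut endoderm, read 6.10 under stretch and 5.89 static, and FOXA1 4.34 under stretch and 4.25 static. FOXM1, which drives genes of mitosis, read 6.22 under stretch and 6.17 static. Its difference was 0.05, from -0.38 to 0.15 over the scalings. Of 15 measured FOXM1 target genes (18 listed), all above the bound on both arrays, 2 passed 1.5-fold upwards, CDK1 (0.78) and CDC20 (0.77), and 0 downwards. Both were under it in at least 1 other scaling (0.36 and 0.37 at the lowest). Among all genes above the bound on both arrays, 33.8% were higher and 4.08% lower. The list median was 0.15 as deposited and -0.25 with the reference genes' median difference subtracted. FOXK1 (5.70 under stretch, 5.41 static) and FOXK2 (6.06 under stretch, 5.66 static), which act in glycolysis and autophagy, differed by 0.29 and 0.40. FOXN2 (7.38 under stretch, 7.09 static), FOXN3 (4.76 under stretch, 5.08 static), FOXJ2 (5.83 under stretch, 6.26 static) and FOXJ3 (7.21 under stretch, 7.31 static) were also above the bound on both arrays and under 1.5-fold as deposited. FOXJ2 and FOXN3 passed it downwards after quantile normalization (-0.86 and -0.71) and after loess (-0.79 and -0.64). FOXJ1, the factor of ciliated airway cells, read 4.00 under stretch and 4.33 static. Of the 4 transcripts named after a FOX gene, FOXD2-AS1 alone lay above the bound on both arrays (4.40 under stretch, 4.50 static).

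Genes around the FOXO factors were mixed. Of 16 measured FOXO regulators and targets (23 listed), 2 passed 1.5-fold upwards and 6 downwards, beside 27.7% and 8.90% of all genes past the filter. The higher pair, IRS1 (4.93 under stretch, 3.61 static) and AKT2 (5.58 under stretch, 4.79 static), belong to the insulin pathway upstream of FOXO. All 6 lower genes are known as FOXO targets. BCL6, a transcriptional repressor, read 4.96 under stretch and 6.43 static (-1.47), and CCNG2, an unconventional cyclin of resting cells, 2.35 under stretch and 3.44 static (-1.09). BNIP3, of mitophagy, read 7.76 under stretch and 8.50 static (-0.74). SESN1 and TXNIP each stood at -0.60 and SESN3 at -0.59. The list median was -0.26, from -0.66 to -0.16 over the scalings, but -0.03 with the upper quartile and 0.12 with the background bound as level filter. BCL6 and BNIP3 lay above the bound on both arrays, SESN1 on the static array only, and CCNG2, TXNIP and SESN3 on neither. These last 3 passed the level filter on the static array alone, where they are high, so the count of 6 and the median give no support. SESN1, TXNIP and SESN3 were under 1.5-fold after centring on array medians, and AKT2 went down to 0.375 over the scalings. With its probe sets averaged, TXNIP stood at -0.36.

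**Figure D3:**
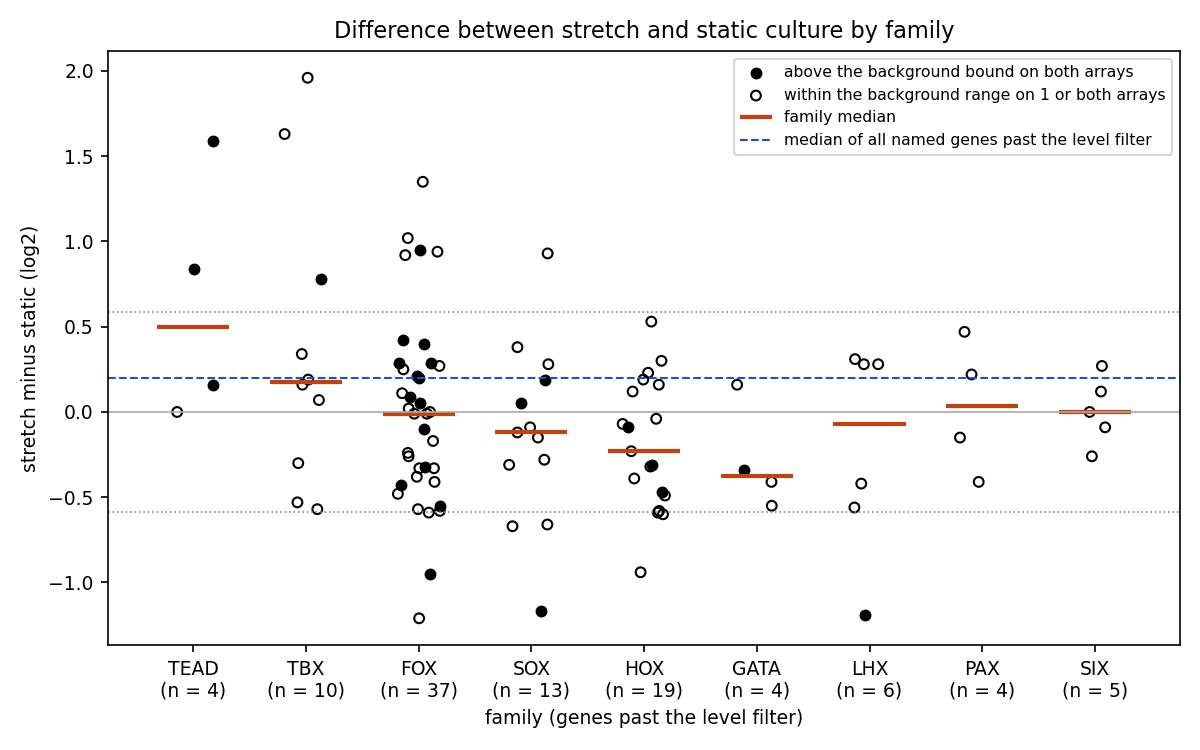
Stretch minus static log2 difference (y axis) of the developmental genes past the level filter, by family (x axis). HOX clusters are pooled, and the transcripts named after FOX genes are left out. Filled points lie above the background bound on both arrays, and bars mark family medians. Dotted lines are at 1.5-fold and the dashed line at the median of all named genes past the filter (0.20). TBX3, TBX20 and TEAD4 plot at the top and FOXP2 (open, not above the bound), LHX8 and SOX9 at the bottom. The medians of FOX, TBX, PAX, LHX and SIX2 to SIX6 do not keep 1 sign over the scalings, while the pooled HOX median runs from -0.63 to -0.13.

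SOX9 led the SOX genes. This factor of cartilage and of the growing tips of the lung bud read 6.35 under stretch and 7.52 static, a difference of -1.17 (2.25-fold lower) that ranged from -1.57 to -1.07 over the scalings. SOX4, which is often abundant in carcinoma cells, read 6.94 under stretch and 6.89 static, and SOX12 5.19 under stretch and 5.00 static. The second, dimmer probe set of SOX12 read 3.55 under stretch and 3.83 static (-0.28). SOX4, SOX9 and SOX12 were the SOX genes above the bound on both arrays, so the readable members of the family were 1 lower and 2 under 1.5-fold. Of all genes above the bound on both arrays, 33.8% were higher and 4.08% lower. SOX2, of the proximal airway, read 2.74 under stretch and 2.46 static, within the background range. SOX18, of vascular endothelium, read 3.03 under stretch and 2.10 static (0.93) and passed the filter on the stretched array alone. SOX15 (2.87 under stretch, 3.54 static) and SOX17 (3.10 under stretch, 3.76 static) completed the lower genes, both within the range. The 9 SOX genes past the filter and under 1.5-fold had differences from -0.31 to 0.38.

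Of 27 measured HOX genes, 19 passed the filter, 3 lay above the bound on both arrays, 0 were at least 1.5-fold higher and 3 lower. Over all genes past the filter, 27.7% were higher and 8.90% lower. Of the 19 HOX genes, 15 exceeded the bound on neither array, a range in which the shares over all genes were 10% and 14%. HOXB9 read 4.41 under stretch and 4.88 static, HOXB6 4.35 under stretch and 4.44 static, and HOXC8 4.30 under stretch and 4.61 static. None of these 3 reached 1.5-fold as deposited, while HOXB9 stood at -0.83 after quantile normalization and -0.75 after loess, and HOXC8 at -0.635 after quantile normalization. HOXC12, one of the posterior genes, read 3.38 under stretch and 4.32 static (-0.94, 1.92-fold lower), HOXC9 2.40 under stretch and 3.0 static (-0.60), and HOXB3 3.07 under stretch and 3.66 static (-0.59). HOXC12 was above the bound on the static array only, and the other two on neither. HOXC9 passed the level filter on the static array alone, where it is high. HOXA2, the single HOXA gene named here, stood at -0.58, and at -0.78 after quantile normalization and -0.69 after loess.

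By cluster, a division looked at with the values known, 7 of 8 HOXB genes and 4 of 5 HOXC genes past the filter had negative differences, and 4 of 5 HOXD genes had positive ones. Most of them did not exceed the bound on either array, a range in which 44.8% of all genes past the filter had positive differences. HOXB1 and HOXC9 passed the filter on the static array alone. The genes below the filter ran from -0.12 to 0.15 in HOXB, from 0.04 to 0.29 in HOXC and from -0.09 to 0.16 in HOXD. The filter thus left out positive differences in HOXB and HOXC, so these counts and the medians give no support to a division by cluster. The medians were -0.36 for HOXB, -0.31 for HOXC and 0.16 for HOXD. HOXB and HOXC medians stayed negative under every scaling, and the HOXD median was -0.24 with the reference genes' median difference subtracted. The highest HOX difference was that of HOXD12 (3.26 under stretch, 2.73 static, a difference of 0.53). HOXD12 passed 1.5-fold upwards after centring on array medians (0.63) and after loess (0.593). None of the 5 HOXD genes past the filter exceeded the bound on either array. The low-numbered genes from 1 to 8 had a median of -0.31 over 11 genes, and the posterior genes from 9 to 13 one of -0.04 over 8. Over the scalings the first ran from -0.71 to -0.21, and the second from -0.435 to 0.065, without keeping its sign. Of these genes, 9 of the 11 and 6 of the 8 exceeded the bound on neither array. The clusters are unevenly spread over these groups, so number and cluster cannot be told apart.

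**Figure D4:**
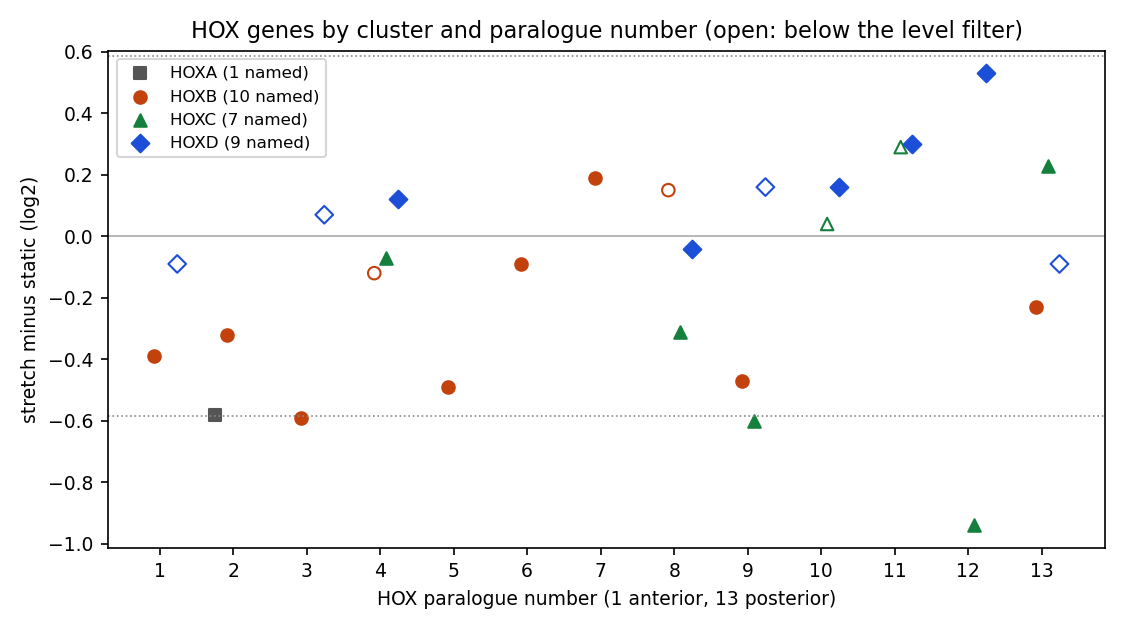
Stretch minus static log2 difference (y axis) of the 27 HOX genes by paralogue number (x axis) and cluster (symbol), filled where the gene passed the level filter, with dotted lines at 1.5-fold. Filled HOXB and HOXC points lie mostly below 0, while the open HOXC points lie above it. HOXD points lie mostly above 0 only as long as the reference genes' median difference (0.40) is not subtracted.

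Genes whose proteins bind with HOX factors or govern HOX loci were read beside the 27.7% higher and 8.90% lower of all genes past the filter. Among 7 measured co-factors of the TALE homeodomain class (9 listed), PBX4 (4.07 under stretch, 3.03 static) and PKNOX1 (4.79 under stretch, 3.93 static) passed 1.5-fold upwards and 0 downwards. PKNOX1 exceeded the bound on the stretched array only, with a difference that went down to 0.46 over the scalings, and PBX4 on neither. MEIS2 (0.40) and MEIS1 (-0.24) came next, and the median was 0.13. Of 16 measured Polycomb and trithorax genes (25 listed), which silence or maintain HOX loci, 4 were higher and 1 lower, shares near those of all genes. KDM6B, a demethylase that removes the Polycomb mark, read 6.53 under stretch and 5.24 static (1.29). EZH2, the methyltransferase that lays that mark, read 6.40 under stretch and 5.34 static (1.06). Both the writer and an eraser of the mark were therefore higher, together with KMT2D (1.03) and KMT2B (1.01), while CBX2, a Polycomb reader, stood at -0.65. EZH2 ranged from 0.62 to 1.16 over the scalings. The list median was 0.23 as deposited, but -0.14 after quantile normalization, -0.05 after loess and -0.17 with the reference genes' median difference subtracted.

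LHX8, a LIM homeodomain factor of forebrain and oocyte, lay above the bound on both arrays and stood lower, with 4.76 under stretch and 5.95 static (-1.19, 2.28-fold lower). The 5 other LHX genes past the filter lay between -0.56 for LHX1 and 0.31 for LHX6. LHX1 and LHX3 passed 1.5-fold downwards after quantile normalization (-0.72 each) and after loess (-0.64 and -0.65). Among the LIM co-factors, SSBP3, which stabilises LDB complexes, read 4.33 under stretch and 5.40 static (-1.07), LMO4 5.09 under stretch and 4.34 static (0.75), and LDB1, the scaffold itself, 7.85 under stretch and 7.99 static. Of 6 measured past the filter (10 listed), 1 was thus higher and 1 lower, beside 27.7% and 8.90% of all genes past the filter. SSBP2 stood at -0.52, and the list median was 0.02.

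GATA and PAX genes and SIX2 to SIX6 had no member past 1.5-fold as deposited. After quantile normalization GATA1 (-0.675), GATA2 (-0.655) and PAX7 (-0.675) passed it downwards, after loess GATA1 (-0.60) and PAX7 (-0.60) did and PAX8 (0.586) upwards, and after centring on reference gene medians GATA2 (-0.59). With the reference genes' median difference subtracted, GATA1 (-0.74), GATA2 (-0.95), GATA5 (-0.81), PAX7 (-0.81) and SIX6 (-0.66) passed it downwards. GATA1, a red cell factor, was the GATA gene above the bound on both arrays (4.33 under stretch, 4.67 static), and GATA3 read 4.21 under stretch and 4.05 static. The 4 GATA genes past the filter had differences from -0.55 for GATA2 to 0.16 for GATA3, and the 4 PAX genes from -0.41 for PAX7 to 0.47 for PAX8. The 5 of SIX2 to SIX6 ran from -0.26 for SIX6 to 0.27 for SIX5. The second, dimmer probe set of SIX5 read 3.51 under stretch and 3.75 static (-0.24). None of SIX2 to SIX6, and no PAX gene, lay above the bound on both arrays. Of their EYA and DACH partners, 4 of 6 passed the filter, with EYA3 (6.23 under stretch, 5.59 static) and EYA4 (6.15 under stretch, 5.53 static) at least 1.5-fold higher and EYA1 (1.98 under stretch, 2.74 static) lower. EYA3 and EYA4 went down to 0.215 and 0.19 over the scalings, under 1.5-fold, and EYA1 passed the level filter on the static array alone. Of 4 GATA partners, TAL1 and LYL1, both of blood formation, stood at -0.74, and CHD4 (0.54) and MTA1 (0.48), of a chromatin remodelling complex, under 1.5-fold. TAL1 passed the level filter on the static array alone. For comparison with both partner lists, 27.7% of all genes past the filter were higher and 8.90% lower.

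**Figure D5:**
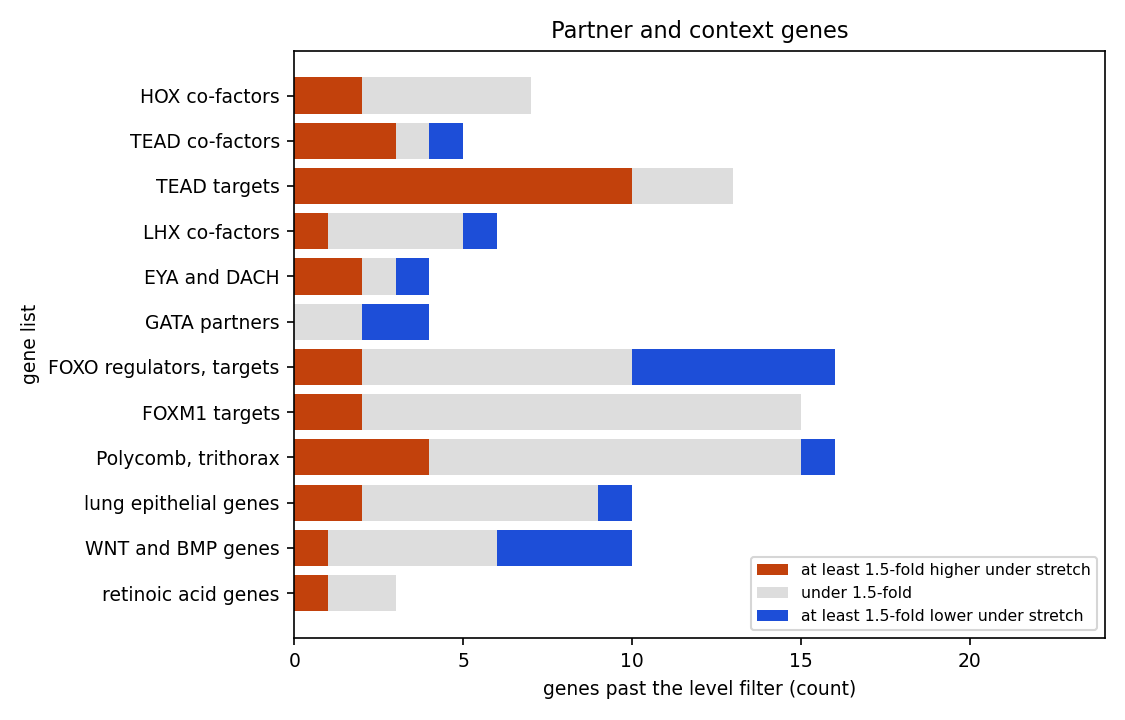
Number of genes past the level filter (x axis) in each list of partners, targets and regulators (y axis), split into those at least 1.5-fold higher under stretch, those under 1.5-fold and those at least 1.5-fold lower. TEAD targets hold 10 higher and 0 lower genes of 13, and the FOXO list 2 higher and 6 lower of 16, on the deposited scale. CCNG2, TXNIP and SESN3 of the FOXO list passed the filter on the static array alone, so its count of 6 gives no support. ANKRD1 of the TEAD targets passed it on the stretched array alone. Of all genes past the filter, 27.7% were higher and 8.90% lower.

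Lung epithelial genes outside the 9 families stayed mostly dim. NKX2-1, the master factor of lung epithelium, read 2.13 under stretch and 2.23 static, below the filter, and the surfactant gene SFTPC 2.87 under stretch and 2.77 static. Of 10 genes of that list past the filter (28 listed), ETV4, an ETS factor of the lung bud, read 6.73 under stretch and 4.91 static (1.82). SFTPA2 (1.06) was the other higher gene, LAMP3 (-0.71) the lower one and AQP5 stood at -0.49, and none of these 3 exceeded the bound on either array. LAMP3 passed the level filter on the static array alone. The list median was 0.16. Beside this list, 27.7% of all genes past the filter were higher and 8.90% lower.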

How the data were processed

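RNA from stretch culture and from static culture was hybridised to 2 Affymetrix arrays, 1 each. For 53617 probe sets the authors deposited log2 values, made by RMA per the submitters' processing notes. Software version, chip definition and normalization between arrays are not given in the sources used here. That the scale is log2 follows from the range of the values.

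The platform's annotation named 16098 probe sets, none with several symbols, and 37519 are unnamed here. All 136 symbols matched RefSeq by gene identifier. Differences were compared with folds of 1.5 and 2. The calculation was tested on simulated data. Alternatives were 2 stricter level filters and no filter, the mean of all probe sets, array medians, quantile normalization, loess (span 0.3) and reference genes (15 of 28 measured). Members and lists were chosen with earlier results of these data known. Named genes are those past 1.5-fold, those above the background bound on both arrays, all TEAD genes, the extremes of each family, and up to 4 per list. Others were chosen after their values were seen: SOX2, FOXJ1, TBX2, TBX5, FOXO4, HOXA2, the surfactant genes and NKX2-1, further FOXO targets, and marker genes. The number of arrays limits the precision. Calculations used Python 3.11.15, numpy 2.4.6, pandas 2.3.3, statsmodels 0.14.6 and matplotlib 3.10.9.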

Additional observations from a re-analysis of the deposited data

How the results depend on the processing

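With 1 array per condition no paired analysis was possible because no replicate exists, and no library could be left out. The counts of 11 higher and 10 lower developmental genes were as large with no level filter and were 10 and 10 with probe sets averaged. Of 7 developmental genes with several probe sets, 2 had differences of the same sign on all of them. At the upper quartile and at the background bound as filter, lower genes numbered 4 and 4 and medians were 0.07 and 0.05. At 2-fold the counts were 5 and 3. Lower developmental genes numbered 5 after centring on array medians, 24 after quantile normalization (median -0.19), 18 after loess and 17 after centring on reference gene medians. For all named genes, no filter gave a median of 0.06. The 2 stricter filters gave 373 and 387 lower at 1.5-fold, 158 and 162 lower at 2-fold and a median of 0.41 each. Quantile normalization gave 1809 higher and 1548 lower at 1.5-fold, 708 and 445 at 2-fold and a median of -0.01, and loess 791 higher at 2-fold and a median of 0.0407. For the partner and context genes (29 higher, 17 lower, median 0.19 as deposited), the stricter filters gave 8 and 8 lower and a median of 0.38 each, quantile normalization 17 higher and a median of -0.005, and loess 19 higher and a median of 0.0171. Chosen after seeing the data, subtracting the reference genes' median difference gave 5 higher and 42 lower developmental genes (median -0.46), 1371 and 2682 of all named genes at 1.5-fold, 539 and 939 at 2-fold (median -0.20), and 17 and 27 partner and context genes (median -0.22). Leaving out the transcripts named after FOX genes and the FOXD4 copies, also chosen later, gave 11 and 9. The cause of these changes was not tested. Dim signals limit most of these genes, of which 97 exceeded the background bound on neither array.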

Other observations

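Genes of WNT and BMP signalling, which act with SOX, TBX and HOX factors in development, were mixed. Of 10 measured past the level filter (15 listed), 1 was at least 1.5-fold higher and 4 lower under stretch, beside 27.7% and 8.90% of all genes. The list median was -0.22, from -0.62 to -0.12 over the scalings. With the upper quartile and the background bound as level filter it was 0.20 and 0.03. BAMBI, a decoy receptor that dampens TGF-β and BMP signals, read 6.38 under stretch and 7.35 static (-0.97). MSX2, a homeodomain target of BMP, stood at -0.97, LEF1 at -0.83 and SP5 at -0.65, none of them above the bound on either array. MSX2 and LEF1 passed the level filter on the static array alone, where they are high, so the count of 4 and the median give no support. DKK1, a secreted WNT inhibitor, read 10.14 under stretch and 9.94 static, under 1.5-fold.

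Of 3 measured genes of the retinoic acid pathway (17 listed), which patterns HOX expression, STRA6, a retinol transporter, read 6.98 under stretch and 6.08 static (0.90). DHRS3, which returns retinal to retinol, read 7.20 under stretch and 6.65 static (0.55), and CRABP2 2.66 under stretch and 2.68 static. STRA6 lay above the bound on both arrays, and its difference was 0.50 with the reference genes' median difference subtracted.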
